A study of Homo sapiens with 6 samples.

Results

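The genes of 10 histone chaperones were examined in the human gastric adenocarcinoma cell line AGS after knockdown of the pseudogene ANXA2P1. They were taken by name from the deposited table of 11846 genes: ASF1A, ASF1B, CHAF1A, CHAF1B, HIRA, UBN1, CABIN1, NASP, DAXX and ATRX. All 10 were in the table and all 10 were tested. ASF1A was chosen by its fall in these same libraries, and the other 9 as chaperones of the same histones, with the results of the comparison known. The values of ASF1A are therefore a description, and its p-value is no independent evidence. Poly(A) RNA had been sequenced from 3 control libraries and 3 ANXA2P1 knockdown libraries. Per the labels, control cells received a scrambled short hairpin RNA (scr-shRNA) and the other cells ANXA2P1-shRNAp (a pool of such hairpins), whereas the methods of the study describe CRISPR interference, with a dead Cas9 fused to the KRAB repressor and guide RNAs against ANXA2P1. Which agent the libraries carried could not be settled from these sources. All 6 libraries came from this 1 cell line, and a batch that follows the groups cannot be told apart from the knockdown. The level of ANXA2P1 was not analysed here, and the labels could not be checked against it.

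Histone chaperones escort histones between synthesis and DNA. ASF1 carries dimers of histones H3 and H4 and passes them on to other chaperones. During DNA replication the recipient is CAF-1, whose large and middle subunits are encoded by CHAF1A and CHAF1B. Outside of replication the recipient is the HIRA complex, made of HIRA, UBN1 and CABIN1, which deposits the replacement variant of H3 at active genes. DAXX and ATRX deposit the same variant at telomeres and pericentric repeats. NASP protects the soluble store of H3 and H4. The paralogs ASF1A and ASF1B overlap in their partners, and ASF1B is the one that is more closely tied to proliferating cells.

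The libraries were of similar depth, with 19010940 to 22911995 recovered reads each. Knockdown 1 had the fewest, and the next lowest, control 2, had 21103051. The epithelial markers EPCAM, KRT8, KRT18, KRT19 and CLDN4 (5 of 5) were in the table, with a summed level of 1382 to 1488 FPKM in the control and 1458 to 1636 FPKM in the knockdown libraries. FPKM counts fragments per kilobase of a gene after scaling for library depth. Of 5 fibroblast markers 1 was in the table, COL1A1, at 1.38 to 1.62 FPKM. None of the 3 endothelial or 4 blood cell markers was in it. Fewer cells of a kind and less RNA per cell cannot be told apart in such bulk samples.

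ASF1A mRNA was lower in each knockdown library than in any control library. It had 15.0, 14.7 and 14.8 FPKM in control 1, 2 and 3, and 11.0, 10.65 and 11.0 FPKM in knockdown 1, 2 and 3. The groups did not overlap, and within each group the values lay close together. The mean was 14.8 ± 0.148 FPKM in the control and 10.87 ± 0.20 FPKM after knockdown (SD, n = 3 each), a change of -26.6%. The log2 fold change, on the scale of log2(FPKM + 0.1), was -0.44 with an SE of 0.0572 and a 95% interval of -0.57 to -0.31 (limma adjusted p = 0.0406 over 10813 genes). The call was lost in 8 of 14 alternative settings, among them the replicate block (limma adjusted p = 0.164) and 5 of the 6 fits that left out a library (up to 0.356 without control 1). Its values rested on 577 to 930 reads per library, where counting alone gives an error of 4.16% at the lowest. The SDs of both groups were smaller than counting alone would give, so the closeness of the values understates their error. ASF1A ranked 13 of all tested genes by p. At the threshold, VANGL1 at rank 14 was just inside with a limma adjusted p of 0.0406, and MAL2 at rank 15 was just outside with a limma adjusted p of 0.0521.

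**Figure D1:**
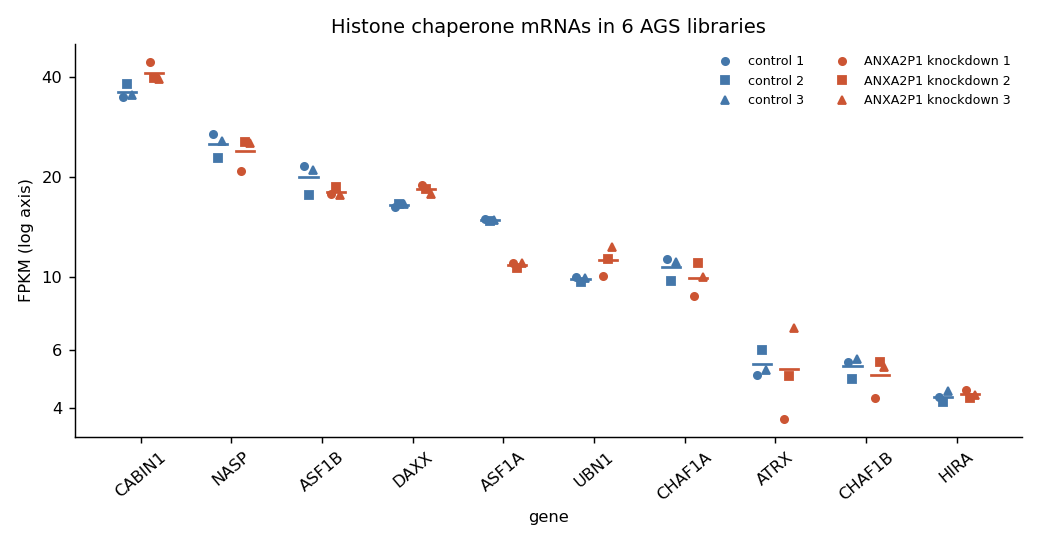
FPKM (log axis) of the 10 histone chaperone genes in each library, ordered by mean level. Points are libraries and bars are group means (n = 3). ASF1A shows a gap between the groups, from 11.0 FPKM in the highest knockdown library to 14.7 FPKM in the lowest control library, whereas the points of most other genes overlap.

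The ASF1A gene, protein-coding with 4 merged exons, occupies positions 118894220 to 118909167 of chromosome 6, plus strand (hg38, GENCODE release 29). The gene lies within the span of MCM9, a helicase gene of DNA repair on the opposite strand, and 137 bases of ASF1A exons, or 5.44% of them, are exonic in MCM9 as well. Without a stated strand setting, reads from this stretch cannot be assigned to 1 of the genes. MCM9 had 1.38, 1.52 and 1.30 FPKM in the control and 1.29, 1.21 and 1.38 FPKM in the knockdown libraries. These ranges overlapped, with a difference of -0.10 on the log2 scale (limma adjusted p = 0.771).

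The paralog ASF1B showed a smaller difference with overlapping groups. ASF1B had 21.6, 17.6 and 21.0 FPKM in control 1, 2 and 3, and 17.8, 18.6 and 17.6 FPKM in knockdown 1, 2 and 3. Control 2 lay at the level of the knockdown libraries. The means were 20.1 ± 2.15 and 18.0 ± 0.522 FPKM (SD, n = 3 each), with a log2 fold change of -0.15 and a 95% interval of -0.35 to 0.05 (limma adjusted p = 0.586). In each library ASF1B exceeded ASF1A. The ratio of ASF1A to ASF1B in FPKM was 0.694, 0.835 and 0.704 in the control and 0.619, 0.572 and 0.622 in the knockdown libraries. The ratio was thus lower in each knockdown library than in any control library, but since ASF1A was chosen by its fall no test was made of it.

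Of the 10 genes, ASF1A alone passed an adjusted p of 0.05 in limma with all libraries and the reported settings, where 0.111% of all tested genes passed in the lower direction. None passed in the higher direction, where 0.0185% of all tested genes did, while 3 of the 10 (ASF1A, CABIN1 and DAXX) had an unadjusted p under 0.05, as did 10.6% of all tested genes. At a fold change above 1.2 with an unadjusted p under 0.05, a rule that takes its fold from the study, ASF1A was again the 1 gene in the lower direction (3.35% of all tested genes) and none was higher (1.54%). The groups did not overlap for ASF1A in the lower direction, as for 9.13% of all tested genes, and for UBN1, CABIN1 and DAXX in the higher direction, as for 9.86%. Nothing about the members follows from these shares, because the comparison was known when they were listed. The median log2 fold change was -0.08 over the 10 genes and 0.01 over all tested genes.

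**Figure D2:**
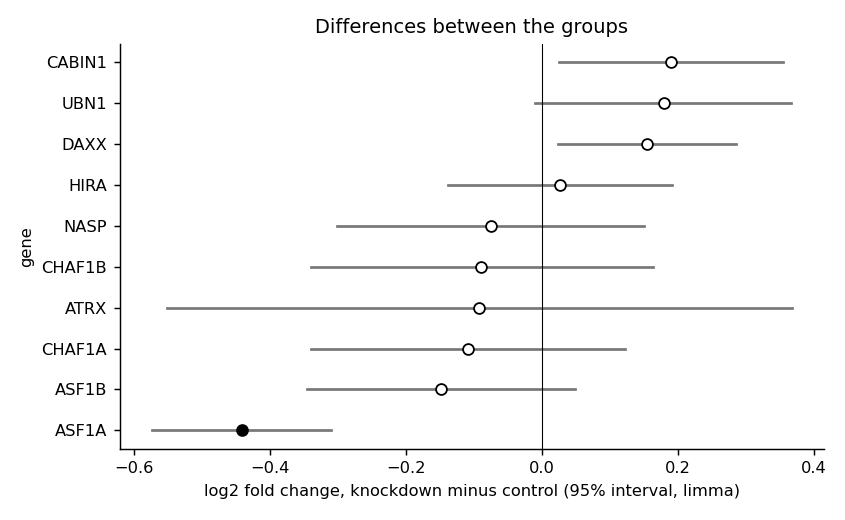
Log2 fold change of each gene, knockdown minus control, with its 95% interval from limma (3 libraries per group). The filled point is ASF1A at -0.44, which passed the adjusted p. The intervals of CABIN1 and DAXX lie above 0, but neither passed after adjustment.

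The large and middle subunits of CAF-1, the chaperone that loads H3 and H4 behind the replication fork, did not pass the test. CHAF1A had 11.3, 9.68 and 11.1 FPKM in the control and 8.75, 11.0 and 9.98 FPKM in knockdown 1, 2 and 3 (means 10.7 ± 0.871 and 9.92 ± 1.14 FPKM, SD, n = 3 each). CHAF1B had 5.51, 4.92 and 5.64 FPKM in the control and 4.29, 5.51 and 5.35 FPKM in the knockdown libraries (means 5.36 ± 0.385 and 5.05 ± 0.662 FPKM, SD, n = 3 each). For both genes knockdown 1 was the lowest of all libraries and the groups overlapped. CHAF1A differed by -0.11 on the log2 scale with a 95% interval of -0.34 to 0.12 (limma adjusted p = 0.746). CHAF1B differed by -0.09 with a 95% interval of -0.34 to 0.16 (limma adjusted p = 0.811), and by 0.02 without knockdown 1. The ratio of these subunits varied little, with 1.87 to 2.05 times as many FPKM of CHAF1A as of CHAF1B.

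NASP, the keeper of the soluble H3 and H4 store, behaved much like CHAF1A and CHAF1B across the libraries. It had 27.0, 22.8 and 25.6 FPKM in the control and 20.9, 25.5 and 25.3 FPKM in knockdown 1, 2 and 3. Knockdown 1 was the lowest and control 2 the next lowest. Its log2 difference was -0.08 with a 95% interval of -0.30 to 0.15 (limma adjusted p = 0.821), and it turned to 0.02 without knockdown 1.

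In the HIRA complex the 3 genes did not share a pattern. HIRA, the subunit that gives the complex its name, had 4.32, 4.17 and 4.51 FPKM in the control and 4.56, 4.31 and 4.38 FPKM in the knockdown libraries. These were the most even values of the 10 genes, with a highest library 1.09 times the lowest. Its log2 fold change was 0.03 with a 95% interval of -0.14 to 0.19 (limma adjusted p = 0.919). HIRA values are uncertain because 66.5% of its exon bases are also annotated to C22orf39 on the same strand, a gene with 1.82 ± 0.175 FPKM after knockdown and 1.75 ± 0.0716 FPKM in the control (SD, n = 3 each).

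UBN1, the ubinuclein that binds the replacement variant of H3, had 10.0, 9.63 and 9.92 FPKM in the control and 10.0, 11.3 and 12.25 FPKM in knockdown 1, 2 and 3. Every knockdown library lay above the controls, but knockdown 1 did so only in the third digit (10.04 against 10.00 FPKM in control 1). UBN1 differed by 0.18 on the log2 scale, with a 95% interval of -0.01 to 0.37 (limma adjusted p = 0.489). CABIN1, a scaffold of the complex that was first known as an inhibitor of calcineurin, had 35.0, 38.25 and 35.4 FPKM in the control and 44.6, 39.8 and 39.6 FPKM in the knockdown libraries. All knockdown values exceeded all control values, with knockdown 1 the highest. CABIN1 differed by 0.19 on the log2 scale with a 95% interval of 0.02 to 0.36, which did not pass the adjusted p (limma adjusted p = 0.402).

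DAXX, the chaperone of the replacement H3 variant at repeats, had 16.3, 16.6 and 16.6 FPKM in the control and 18.9, 18.4 and 17.8 FPKM in knockdown 1, 2 and 3. The groups did not overlap, with a difference of 11.4% between the means of 16.5 ± 0.180 and 18.4 ± 0.539 FPKM (SD, n = 3 each). On the log2 scale DAXX differed by 0.15 with a 95% interval of 0.02 to 0.29, which did not pass the adjusted p (limma adjusted p = 0.385). In GENCODE, 14.3% of its exon bases are also annotated to AL662820.1, on the same strand and not in the table, so reads of either cannot be told apart there.

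ATRX, the chromatin remodeller that works with DAXX, was the most variable of the 10 genes. It had 5.055, 5.998 and 5.235 FPKM in the control and 3.72, 5.00 and 7.01 FPKM in knockdown 1, 2 and 3, so the lowest and the highest library both belonged to the knockdown. The highest was 1.89 times the lowest. These values rested on 1709 to 3580 reads, where counting alone gives an error of 2.42% at the lowest. The log2 fold change was -0.09 with a 95% interval of -0.55 to 0.37 (limma adjusted p = 0.895). Without knockdown 3 it was -0.32 and passed the rule of fold and unadjusted p, and without knockdown 1 it turned to 0.13. The ratio of DAXX to ATRX in FPKM was 3.22, 2.77 and 3.17 in the control and 5.08, 3.69 and 2.54 in knockdown 1, 2 and 3.

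Across the 10 genes levels per length ran from HIRA at a mean of 4.37 FPKM to CABIN1 at 38.8 FPKM. CABIN1 lay above 90.5% of all tested genes and HIRA above 32.5%. In descending order came CABIN1, NASP (24.5), ASF1B (19.0), DAXX (17.4), ASF1A (12.8), UBN1 (10.5), CHAF1A (10.3), ATRX (5.34), CHAF1B (5.20) and HIRA, each as the mean FPKM over 6 libraries. The ranges of libraries did not overlap between CABIN1 and NASP, between DAXX and ASF1A, or between CHAF1A and ATRX. All other neighbours in this order overlapped. Within the HIRA complex the level of CABIN1 was 7.85 to 9.79 times that of HIRA, and that of UBN1 was 2.20 to 2.80 times that of HIRA. The rank of HIRA and these ratios are uncertain, because 66.5% of its exon bases are shared with C22orf39.

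Knockdown 1 lay below all other libraries for CHAF1A, CHAF1B, NASP and ATRX but not for ASF1A or ASF1B. It was also the library with the fewest reads, and a link between depth and these values was not tested. For ASF1B knockdown 1, 2 and 3 had -0.165, -0.102 and -0.179 relative to the control mean on the log2 scale, and control 2 was the lowest library at -0.182. Relative to the control mean, the median of ASF1B, CHAF1A, CHAF1B and NASP on the log2 scale was -0.27 in knockdown 1, 0.03 in knockdown 2 and -0.05 in knockdown 3. The controls themselves had 0.09, -0.14 and 0.06, so knockdown 2 and 3 lay within their range. ASF1A had -0.42, -0.47 and -0.43 in knockdown 1, 2 and 3, and 0.02, -0.01 and 0.00 in the controls. The median of HIRA, UBN1, CABIN1, DAXX and ATRX was 0.07, 0.14 and 0.13 in the knockdown libraries and -0.02, 0.01 and 0.01 in the controls. That median hides ATRX, which had -0.53, -0.11 and 0.37 in knockdown 1, 2 and 3. This grouping follows the known roles of the genes but was made after their values were seen, and it was not tested.

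**Figure D3:**
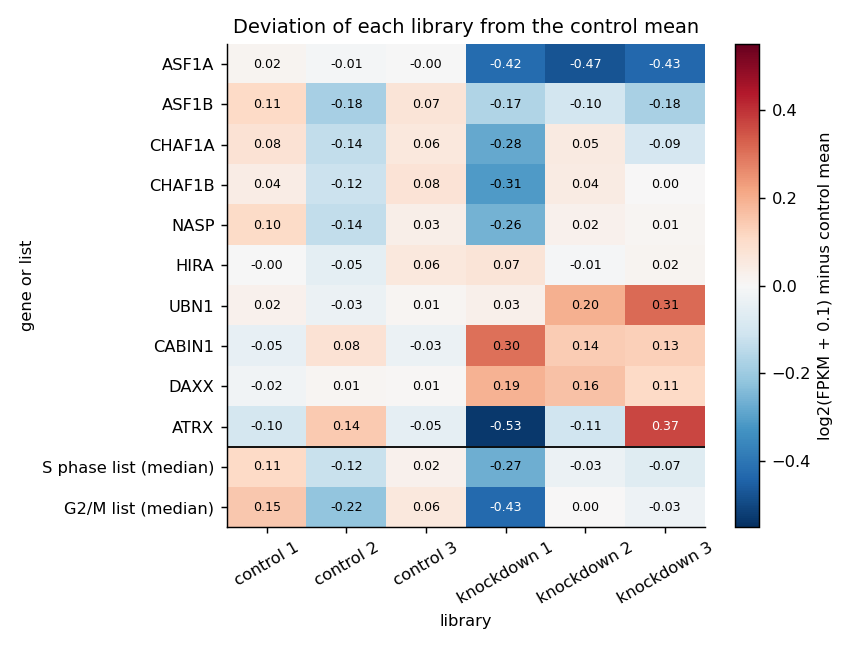
Difference of log2(FPKM + 0.1) from the control mean for each gene (rows) and library (columns), with the medians of the S phase and G2/M lists in the lowest rows. ASF1A is near -0.4 in all 3 knockdown libraries. CHAF1A, CHAF1B and NASP are low in knockdown 1 and near 0 in knockdown 2 and 3, and both lists are low in knockdown 1 as well. ATRX is at -0.53 in knockdown 1 and at 0.37 in knockdown 3.

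Cell cycle genes were also lowest in knockdown 1 by their list medians. The difference was negative for all 27 S phase genes, with a median of -0.11 on the log2 scale, beside 0.01 over all tested genes. None passed the adjusted p (5 at an unadjusted p under 0.05 in limma, beside 10.6% of all tested genes). Relative to the control mean the S phase median was -0.27 in knockdown 1, -0.03 in knockdown 2 and -0.07 in knockdown 3, beside 0.11, -0.12 and 0.02 in the controls. RFC3, a subunit of the clamp loader, had 32.8, 29.1 and 30.8 FPKM in the control and 22.4, 26.6 and 26.9 FPKM in the knockdown libraries (log2 difference -0.29, limma adjusted p = 0.279). MCM3, a subunit of the replicative helicase, differed by -0.22 (limma adjusted p = 0.326).

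The 19 tested G2/M genes were all negative too, with a median of -0.18, beside 0.01 over all tested genes. None passed the adjusted p (1 at an unadjusted p under 0.05 in limma, beside 10.6% of all tested genes). Without knockdown 1 the median of the G2/M genes was -0.004 and that of the S phase genes -0.06. By library the G2/M median was -0.43 in knockdown 1, 0.00 in knockdown 2 and -0.03 in knockdown 3, and 0.15, -0.22 and 0.06 in the controls. CDC25C, whose phosphatase activates CDK1 at mitotic entry, differed by -0.37 on the log2 scale (limma adjusted p = 0.334), and TTK, a kinase of the spindle checkpoint, by -0.38 (limma adjusted p = 0.489). The part of the cell cycle in the values of the chaperone genes was not tested.

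ASF1 depends on further proteins, and 8 of 9 listed partners and regulators were tested. None passed the adjusted p (2 at an unadjusted p under 0.05 in limma, beside 10.6% of all tested genes). Of these genes 5 were negative, and the median log2 fold change was -0.09, beside 0.01 over all tested genes. TLK2, a kinase that phosphorylates ASF1, had 4.33, 4.16 and 4.13 FPKM in the control and 4.79, 4.85 and 5.19 FPKM in the knockdown libraries, without overlap. TLK2 thus differed by 0.23 on the log2 scale (limma adjusted p = 0.301), and its paralog TLK1 by -0.10 (limma adjusted p = 0.766). MCM2, a helicase subunit that also binds H3 and H4, had 20.1, 16.0 and 19.3 FPKM in the control and 14.8, 15.9 and 16.0 FPKM after knockdown (log2 fold change -0.24, limma adjusted p = 0.411). The groups of MCM2 were barely apart, with 15.98 FPKM in control 2 against 15.96 FPKM in knockdown 3.

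Of 27 other histone chaperones 24 were tested. None passed the adjusted p (2 at an unadjusted p under 0.05 in limma, beside 10.6% of all tested genes). The median log2 fold change was -0.07, with 15 negative and 9 positive values. ANP32E, which removes the variant H2A.Z from chromatin, had 87.2, 87.2 and 86.3 FPKM in the control and 66.0, 74.6 and 82.1 FPKM in the knockdown libraries. DEK, a chromatin protein that chaperones histones, had 62.4, 59.9 and 61.6 FPKM in the control and 43.5, 54.2 and 57.8 FPKM in the knockdown libraries. Both were below the controls in every knockdown library, the most in knockdown 1, and differed by -0.23 and -0.25 on the log2 scale (limma adjusted p = 0.379 and 0.439). The subunits of FACT, SSRP1 and SUPT16H, which help polymerases through nucleosomes, differed by -0.14 and -0.05 (limma adjusted p = 0.648 and 0.923).

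Among 9 tested replacement histones, which are made outside of S phase as well, none passed the adjusted p. In limma 1 had an unadjusted p under 0.05, beside 10.6% of all tested genes. The median log2 fold change was -0.06 with 6 negative values. The genes of the replacement variant of H3 that HIRA and DAXX deposit, H3-3A and H3-3B, differed by 0.06 and -0.02 on the log2 scale (limma adjusted p = 0.858 and 0.941). H2AZ1, which encodes the main form of H2A.Z, differed by -0.10 (limma adjusted p = 0.675). Several of these genes, such as H3-3A, have processed copies in the genome with which reads can be shared.

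**Figure D4:**
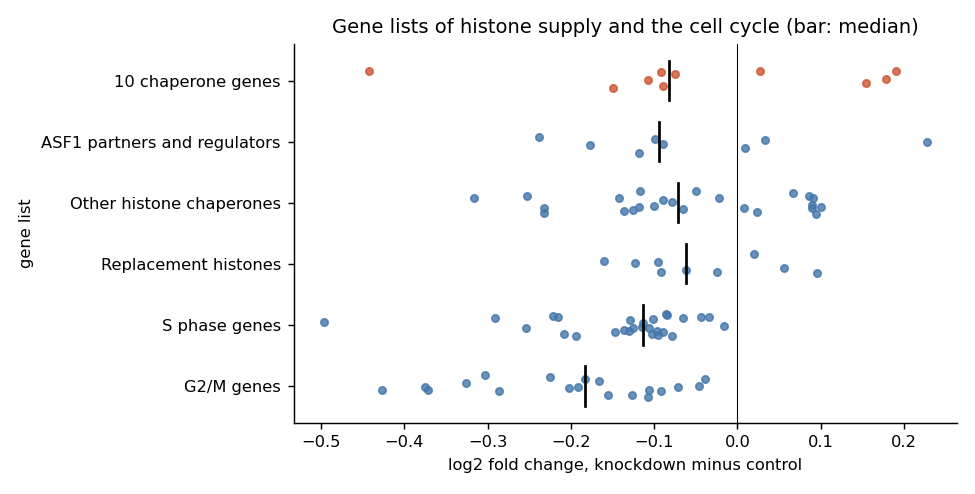
Log2 fold changes, knockdown minus control, of the 10 chaperone genes and of the tested genes of 5 lists. Each point is a gene and the bar is the median. ASF1A is the chaperone gene at -0.44. The medians lie between -0.18 for the G2/M list and -0.06 for the replacement histones.

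The 5 genes whose pattern over the 6 libraries lay nearest to that of ASF1A were found among 10107 others with a mean of at least 1 FPKM, by the root mean square difference of their log2 deviations. They were GPBP1L1 (0.0461), CASP9 (0.0476), which encodes an initiator caspase, EIF2S3 (0.0481), which encodes a subunit of a translation initiation factor, STK3 (0.0515), a kinase of the Hippo pathway, and SLC35A5 (0.0525), of a family of nucleotide sugar transporters. EIF2S3 had 87.8, 92.1 and 85.3 FPKM in the control and 67.9, 67.5 and 67.4 FPKM in the knockdown libraries. All 5 were lower in each knockdown library than in any control library, which follows from their choice by likeness to ASF1A. None passed the adjusted p, with limma adjusted p-values from 0.0687 to 0.142. Among the chaperones ASF1B lay nearest, with a difference of 0.174 at rank 984, and ATRX farthest, with 0.325 at rank 9074.

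Promoter sequences were searched because CHAF1A, CHAF1B and NASP varied alongside S phase genes, many of which are targets of the E2F factors. A low median in knockdown 1 was not particular to the S phase list. Relative to the control mean, knockdown 1 had -0.43 for G2/M genes, -0.22 for ASF1 partners and regulators and -0.19 for other histone chaperones. Replacement histones had 0.01 there, and all tested genes 0.02. The RefSeq promoter table (GRCh38.p14, 250 bases before to 50 after the start) held 8 of the 10 genes. Only the first promoter listed for each gene was searched. For ASF1A, ASF1B, UBN1 and HIRA the upstream end of the gene in GENCODE lies outside that window. For HIRA this end is at 19447450, against a window of 19431684 to 19431983. The words TTTGGCGC, TTTCGCGC, TTTCCCGC and TTTGCCGC, which together spell the E2F consensus, were looked for on both strands, and no other motif was searched. Such a word was in the promoters of 1 of the 8 chaperone genes, 13 of 23 S phase genes (56.5%) and 5.75% of 8815 tested genes. Among G2/M genes 1 of 15 promoters (6.67%) had a word. The shares were 2 of 6 for ASF1 partners and regulators, 2 of 21 for other histone chaperones and 1 of 8 for replacement histones. Of the 8 chaperone genes the 1 with a word was HIRA. Its word, in capitals, lies 45 bases before the start that was used. The 24 bases printed are on the minus strand at chr22:19431763-19431786.
HIRA: gggagcggTTTCCCGCcggggcga
A match is no proof of a binding site, and its absence says only that these letters were not in the window. The part of E2F factors in the values of these genes was not tested.

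The call of ASF1A depended on which libraries and settings entered the test, while its size did not. Leaving out 1 library in turn gave log2 fold changes of -0.45 to -0.43, with limma adjusted p-values from 0.0047 without knockdown 1 to 0.356 without control 1. ASF1A passed without knockdown 1 only. It did not pass without control 1 (0.356), control 2 (0.325), control 3 (0.298), knockdown 2 (0.247) or knockdown 3 (0.0719), all limma adjusted p. The replicate block enters the replicate number of the labels as a covariate.

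**Figure D5:**
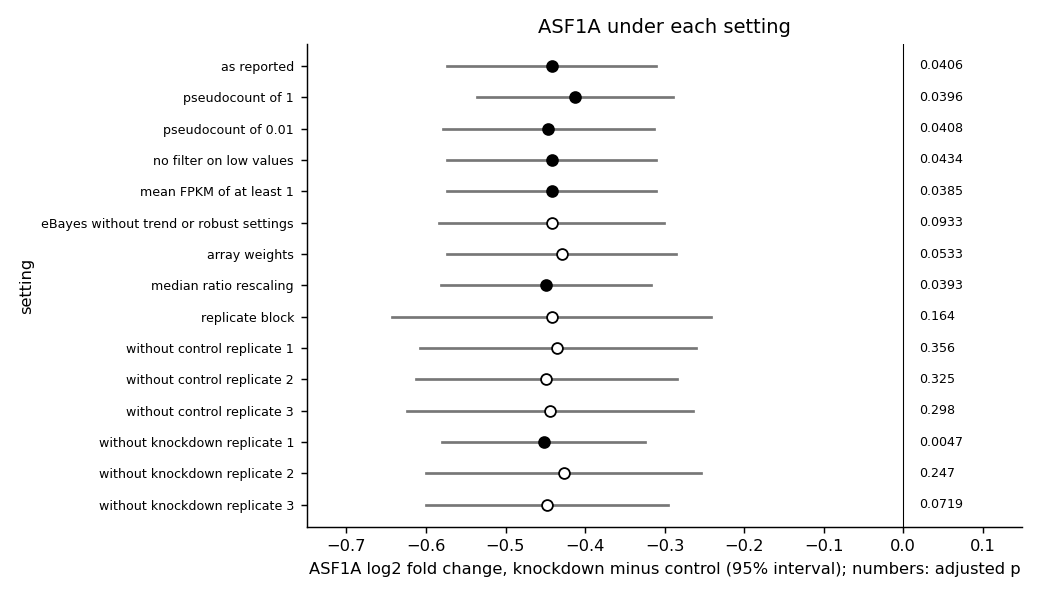
Log2 fold change of ASF1A with its 95% interval under each setting, with the limma adjusted p at the right. Filled points passed an adjusted p of 0.05. The estimates range from -0.45 to -0.41 and all intervals lie below 0.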

How the data were processed

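Poly(A) RNA was captured on oligo-dT beads, and second strands carried U. The submitters' processing notes name Bowtie2, TopHat and the build hg38. Not given in the sources used here are the counter, annotation, strand setting and expression filter. The table deposited by the authors holds FPKM values, 1 column per library, and its lowest gene mean is 0.167 FPKM. The design text calls the replicates biological without naming separate cultures, so p-values measure the spread between these libraries, which may be technical.

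The members and lists were chosen with earlier results of these data known. The 10813 genes whose mean reached 0.5 FPKM entered limma 3.58.1 (lmFit, then eBayes with its trend and robust options) as log2(FPKM + 0.1), a scale that understates changes of low genes. P-values were two-sided and Benjamini-Hochberg adjusted, with a threshold of 0.05. Whole reads were recovered from the steps of the FPKM values for 99.98% of genes, with a tolerance of 0.001 to 0.05 reads, and served to give the depth of libraries and of single genes, not to test. Both steps were tested on simulated data. Of each list, all genes past the adjusted p and the 2 with the smallest p were named, as were the 5 genes most like ASF1A. The values of 1 gene that this rule names are not reported here. TLK1, H3-3A, H3-3B, SSRP1 and SUPT16H were added for their roles after their values were seen. Beside the reported fit, 14 alternatives were run: other pseudocounts, filters, limma options, scaling, the replicate block and each library left out.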

Additional observations from a re-analysis of the deposited data

How the results depend on the processing

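ASF1A was lower after knockdown in all 14 alternatives and passed the adjusted p in 6 of them. It did not pass without trend or robust settings (log2 fold change -0.44, limma adjusted p = 0.0933), with array weights (-0.43, 0.0533) or with the replicate block (-0.44, 0.164). In these 3 settings 0 of the 10 genes passed, and over all genes 0 (1168 at an unadjusted p under 0.05), 14 and 1 passed, instead of 14. With a library left out, ASF1A had -0.45 to -0.43, 0 to 1 of the 10 genes and 0 to 256 of all genes (256 without knockdown 1, at most 5 otherwise, and 0 without knockdown 2 or any 1 control, where 696 to 823 had an unadjusted p under 0.05) passed the adjusted p, and 1 to 2 of the 10 passed the rule of fold and unadjusted p, the added gene being ATRX without knockdown 3. Over all genes that rule gave 485 to 992 genes with a library left out (992 without knockdown 3) and 341 with a pseudocount of 1, instead of 528. Of the genes not called, 3 changed sign: without knockdown 1, CHAF1B had 0.0221 (-0.155 to 0.0221 over the libraries left out), NASP 0.0180 (-0.143 to 0.0180) and ATRX 0.128 (-0.321 to 0.128), and with array weights ATRX had 0.142. The cause was not tested. Without knockdown 1 the list medians of ASF1 partners and of other chaperones were 0.01 and 0.02, and those of the G2/M and S phase genes -0.004 and -0.06, instead of -0.18 and -0.11. Over all libraries left out, the G2/M median was -0.298 (without control 2) to -0.004, the S phase median -0.185 (without control 2) to -0.058, and the replacement histone median -0.081 (without knockdown 1) to -0.034 (without knockdown 3). Deviations of same-numbered libraries were negatively correlated across genes (-0.338, -0.468 and -0.116), so they gave no sign of a pairing behind the replicate block. Such correlations cannot show whether same-numbered libraries were prepared together.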
